A study of Mus musculus with 3 samples.

Results

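The genes described here are 10 genes of monoamine synthesis, storage, uptake and breakdown: *Th*, *Ddc*, *Dbh*, *Tph2*, *Slc18a1*, *Slc18a2*, *Slc6a2*, *Slc6a4*, *Maoa* and *Maob*. They were taken by symbol from the 33353 listed genes, and all 10 are listed. Their levels were read in 2060 cells from the small intestine of 3 *Wnt1-tdT; Ednrb*-/- mice at postnatal day 14, with 1 single-cell RNA-seq library (10x Chromium v3.1) per mouse. *Ednrb* encodes the endothelin B receptor, and mice that lack it in every cell have no ganglia in the distal bowel, a model of Hirschsprung disease. All 3 mice are labelled C57BL/6, carry Wnt1-Cre with a Cre-dependent GCaMP5 and tdTomato reporter, which marks cells descended from the neural crest, and form 1 condition, so that no genotypes are compared. The cells came from the whole small intestine, which keeps its ganglia, and from its LMMP, the layer of longitudinal muscle that carries the myenteric plexus. They were sorted for tdTomato, and the deposited cells are those the authors kept as neurons.

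Catecholamines are made from tyrosine in a chain of enzymes. Tyrosine hydroxylase (*Th*) makes L-DOPA in the rate-limiting step, aromatic L-amino acid decarboxylase (*Ddc*) turns it into dopamine, and dopamine beta-hydroxylase (*Dbh*) makes noradrenaline inside vesicles. Serotonin is made from tryptophan by tryptophan hydroxylase, which is *Tph2* in neurons and *Tph1* in enterochromaffin cells, followed by *Ddc*. Vesicular transporters (*Slc18a1*, *Slc18a2*) load the amines, plasma membrane transporters take back noradrenaline (*Slc6a2*) and serotonin (*Slc6a4*), and the monoamine oxidases (*Maoa*, *Maob*) break them down at mitochondria. In the bowel wall most noradrenaline is released by sympathetic axons whose cell bodies lie outside the gut, and most serotonin is released by the epithelium. Some myenteric neurons make serotonin or dopamine, and precursors in the embryonic gut express *Th* and *Dbh* for a time.

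Promoters are shown for the detected genes of synthesis and vesicular storage, *Th*, *Dbh*, *Slc18a2* and *Ddc*, the part of the pathway whose levels and shared cells the results turn on. Each sequence is from RefSeq on GRCm38.p6, runs 5′ to 3′ on the strand of the gene, and covers 250 bases before the start and 10 after it. Capitals mark ATTA on either strand, the core letters read by homeodomain factors such as Phox2a, and TGACGTCA, the cyclic AMP response element, which reads the same on both strands. Matches may overlap.
*Th*, chr7:142899986-142900245, minus strand: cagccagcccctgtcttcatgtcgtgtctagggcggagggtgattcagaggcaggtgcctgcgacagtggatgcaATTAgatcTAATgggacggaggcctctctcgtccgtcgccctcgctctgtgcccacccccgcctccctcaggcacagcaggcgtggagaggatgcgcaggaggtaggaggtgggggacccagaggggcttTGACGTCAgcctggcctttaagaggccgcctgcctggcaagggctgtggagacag
*Dbh*, chr2:27165257-27165516, plus strand: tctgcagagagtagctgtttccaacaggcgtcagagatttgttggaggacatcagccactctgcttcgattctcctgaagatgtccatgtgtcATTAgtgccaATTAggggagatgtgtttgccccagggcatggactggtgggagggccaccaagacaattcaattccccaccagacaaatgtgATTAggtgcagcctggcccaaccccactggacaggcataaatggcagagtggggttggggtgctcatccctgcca
*Slc18a2*, chr19:59260628-59260887, plus strand: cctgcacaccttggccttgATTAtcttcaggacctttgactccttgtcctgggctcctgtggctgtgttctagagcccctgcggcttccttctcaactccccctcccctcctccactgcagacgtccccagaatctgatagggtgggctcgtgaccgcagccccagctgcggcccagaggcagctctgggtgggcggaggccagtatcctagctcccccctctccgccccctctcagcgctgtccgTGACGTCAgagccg
*Ddc*, chr11:11898135-11898394, minus strand: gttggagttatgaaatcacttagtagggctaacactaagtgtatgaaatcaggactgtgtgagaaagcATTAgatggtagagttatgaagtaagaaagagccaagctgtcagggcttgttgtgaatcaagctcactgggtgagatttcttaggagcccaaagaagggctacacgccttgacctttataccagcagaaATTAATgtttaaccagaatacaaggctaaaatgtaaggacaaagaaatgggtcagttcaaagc
*Ddc*, second start, chr11:11890399-11890658, minus strand: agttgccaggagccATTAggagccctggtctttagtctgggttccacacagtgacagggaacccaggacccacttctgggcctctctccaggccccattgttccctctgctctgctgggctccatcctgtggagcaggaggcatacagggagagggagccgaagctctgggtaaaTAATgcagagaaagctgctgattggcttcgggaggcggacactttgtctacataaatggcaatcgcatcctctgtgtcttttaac
The *Th* window held 2 matches to ATTA and 1 to TGACGTCA, and the *Slc18a2* window held 1 of each, its TGACGTCA lying across the start. *Dbh* held 3 matches to ATTA, the upstream *Ddc* start 3 and the second 2, and none of these 3 windows held TGACGTCA. Of 32851 mouse promoters of the same length, 55.6% held ATTA at least once, 31.5% at least 2 times and 17.8% at least 3 times, and 1.67% held TGACGTCA. Of the entries not printed, *Tph2* held 4 matches to ATTA, *Slc6a4* and *Maoa* held 0, and none held TGACGTCA. A match describes the letters and does not show a bound factor.

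Mouse 1 stood apart from mice 2 and 3. It gave 354 cells with a median of 3734.5 UMIs (unique molecular identifiers, 1 per captured RNA molecule), against 1050 cells with 9599.5 and 656 cells with 9578.5. Of its cells 248 formed a cluster of their own, 171 genes had 20 or more UMIs in mouse 1 and 0 in the others, and 224 genes with 20 or more in each of mice 2 and 3 were at 0 in mouse 1 where its depth gave 3 or more. When the cells were clustered with the 10 genes, *Neurod4*, *Nos1* and *Chat* left out of the variable genes, 13 clusters (0 to 12) resulted. In 12 of them the neuronal markers were the list with the highest mean share of positive cells, at 49.4% to 89.7%. Cluster 10, with 64 cells of which 58 came from mouse 1, was smooth muscle-like, with smooth muscle markers at 92.8% and neuronal markers at 24.4%. It serves as a reference of cells that are not neurons, a limited one, as it came mostly from mouse 1 and held some neuronal markers. Only 2 cell barcodes occurred in more than 1 library. *Ednrb* was detected in 42.7%, 68.9% and 58.8% of the cells of mice 1, 2 and 3, which does not check the genotype because a sum over a gene does not show which exons were read.

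Of the 10 genes, *Slc18a2* and *Maoa* were detected in many cells, *Ddc*, *Dbh* and *Maob* in a minority, *Th* in a few, and the others in almost none. A cell counts as positive at 1 UMI. Intervals of shares are 95% exact (Clopper-Pearson) and those of levels exact Poisson, and both cover counting error only. Levels are UMIs per 10000 UMIs and are not compared between genes.

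**Figure D1:**
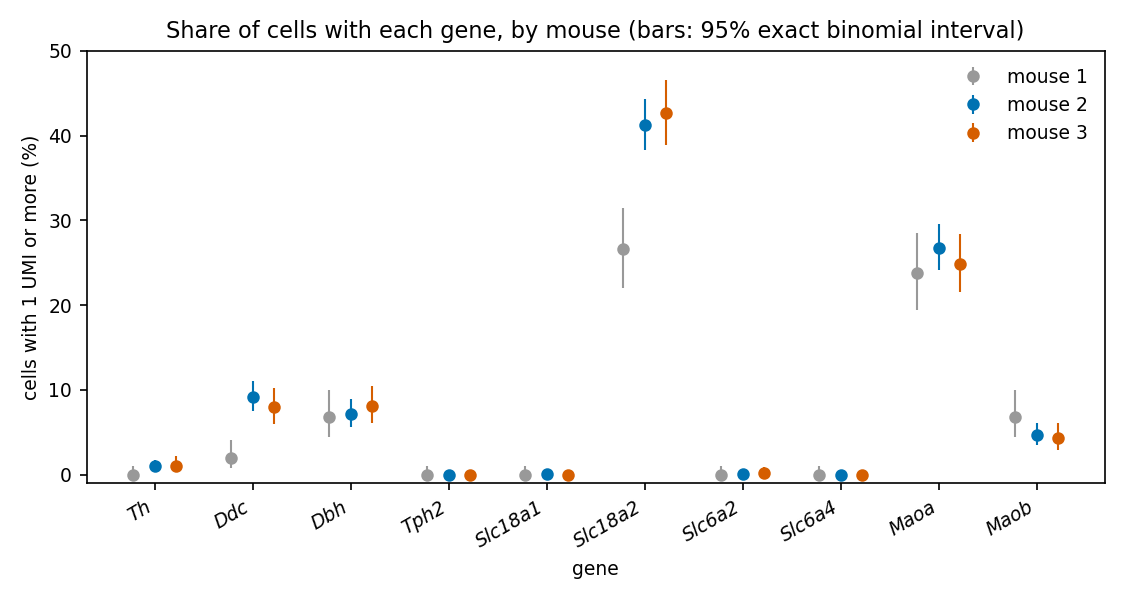
Share of cells with 1 UMI or more of each of the 10 genes (vertical axis, percent) in mice 1, 2 and 3, with 95% exact binomial intervals. *Slc18a2* and *Maoa* lie above 20% in every mouse, *Ddc* and *Slc18a2* are lowest in mouse 1, which has the shallowest cells, and *Tph2*, *Slc18a1*, *Slc6a2* and *Slc6a4* lie at or near 0.

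*Th* (chromosome 7, 142892752 to 142931128, GENCODE M21 on GRCm38, as for all positions here) was detected in 17 cells with 28 UMIs. It was in 0 of 354 cells of mouse 1, which leaves room for a share of at most 0.847%, in 10 cells of mouse 2 (0.952%, 0.458 to 1.74) and in 7 cells of mouse 3 (1.07%, 0.430 to 2.19). At the level of mice 2 and 3, mouse 1 would have held 2.55 UMIs, so its 0 does not show a difference. No *Th* was seen in the 64 smooth muscle-like cells, which allows a share of up to 4.69%. Cluster 9, with leading genes *Edn1*, *Gpr149*, *Nog* and *Nmu*, held 15 of the 28 UMIs in 6 of its 75 cells (8.0%, 2.99 to 16.6), 2 cells from mouse 2 and 4 from mouse 3. Cluster 0, with leading genes *Cartpt* and *Grp*, held 8 UMIs in 6 of 377 cells, and clusters 6, 8 and 11 held the rest.

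Only 3 of the 17 cells held more than 1 UMI of *Th*, and each of these also held *Dbh* and *Slc18a2*. The first, from cluster 9 of mouse 3, had 7 UMIs of *Th*, 3 of *Ddc*, 4 of *Dbh*, 1 of *Slc18a2* and 2 of *Maoa*. The second, from cluster 9 of mouse 2, had 4 of *Th*, 5 of *Dbh*, 2 of *Slc18a2*, 3 of *Maoa* and 1 of *Maob*, and 0 of *Ddc*. The third, from cluster 0 of mouse 2, had 3 of *Th*, 1 of *Ddc*, 8 of *Dbh*, 2 of *Slc18a2* and 1 each of *Maoa* and *Maob*. The first and the third were the 2 cells of all 2060 with *Th*, *Ddc*, *Dbh* and *Slc18a2* together, the whole set for making and storing noradrenaline.

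*Tph2* (chromosome 10, 115078641 to 115185022), the neuronal enzyme that starts serotonin synthesis, was detected in 0 of 2060 cells, where a share of at most 0.146% would go unseen, as would a level of at most 0.00164 UMIs per 10000. *Tph1*, looked at because *Tph2* was at 0 and so chosen after its values were seen, was found in 14 of the 237 cells of cluster 3 (5.91%, 3.27 to 9.71), which has *Tox3*, *Ccnd1* and *Bcl11b* among its leading genes. Those 17 UMIs were 68.0% of all its UMIs. It shared a cell with *Ddc* in 2 cases, both in cluster 5 of mouse 2, and with *Slc18a2* in 1, and no cell held all of *Tph1*, *Ddc* and *Slc18a2*.

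*Ddc* (chromosome 11, 11814101 to 11898144), which serves both chains, was detected in 155 cells with 229 UMIs. The share was 1.98% in mouse 1 (0.799 to 4.03), 9.14% in mouse 2 (7.47 to 11.1) and 7.93% in mouse 3 (5.98 to 10.3), or 6.35% ± 3.83 (SD, n = 3 mice). When cells were thinned to 3000 UMIs each, with 78, 55 and 45 shallower cells set aside, the shares were 2.17%, 4.42% and 2.29%. Mouse 1 was thus below the others at its own depth, and close to mouse 3 in this thinned draw, for which no interval was taken. The level was 0.0524 UMIs per 10000 (0.0226 to 0.103) in mouse 1. It was 0.138 (0.116 to 0.163) in mouse 2 and 0.122 (0.0961 to 0.152) in mouse 3. In the smooth muscle-like cells (median 3538.5 UMIs, against 8202.5 over all cells) *Ddc* was in 0 of 64.

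The level of *Ddc* by cluster was 0.464 UMIs per 10000 (0.369 to 0.575) in cluster 5, whose leading genes include *Neurod4*, *Igfbpl1*, *Phox2a* and *Ddc* itself, and next 0.190 (0.134 to 0.262) in cluster 3. These 2 intervals do not overlap, while all neighbours further down the order do. Cluster 5 had *Ddc* in 46 of 161 cells (28.6%, 21.7 to 36.2) and held 36.2% of its UMIs, at 0.616 in mouse 2 and 0.282 in mouse 3, with no cell from mouse 1. Without this cluster the level was 0.0524, 0.0884 and 0.0983 in mice 1, 2 and 3, against 0.0524, 0.138 and 0.122 with it. Of the 5 cells with 5 or more UMIs of *Ddc* (up to 9), 4 were in cluster 5 and 4 held *Neurod4*. None of the 5 held *Th* or *Dbh*, and 1 held *Slc18a2*. Over all cells *Th* was in 0.825% and *Dbh* in 7.38%, so that their absence from 5 cells does not set these cells apart.

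*Dbh* (chromosome 2, 27165233 to 27183200), which turns dopamine into noradrenaline, was detected in 152 cells with 273 UMIs. Its share was 6.78% in mouse 1 (4.39 to 9.92), 7.14% in mouse 2 (5.66 to 8.87) and 8.08% in mouse 3 (6.11 to 10.4), or 7.33% ± 0.671 (SD, n = 3 mice), close to even in spite of the depth of mouse 1. At 3000 UMIs per cell it was 5.43%, 2.81% and 4.42%. Clusters differed widely. Cluster 11, with leading genes *Trhde* and *Neurod6*, had *Dbh* in 9 of 22 cells (40.9%, 20.7 to 63.6) at 2.90 UMIs per 10000 (2.19 to 3.78), and the next, cluster 12 with *Slc17a6* and *Ano5*, had 0.707 (0.353 to 1.26). Cluster 11 held 5 cells of mouse 3, at 6.72, and 17 of mouse 2, at 1.78, and 2 of its cells, 1 from each mouse, had 24 and 18 of its 55 UMIs. At the other end, *Dbh* was in 0 of the 161 cells of cluster 5, which allows up to 1.86%, and in none of the 64 smooth muscle-like cells. All 7 cells with 5 or more UMIs of *Dbh* also held *Slc18a2*, at 2 to 9 UMIs, 4 of them held *Maob*, and 0 held *Neurod4*. Over all cells *Slc18a2* was in 39.2%, *Maob* in 4.90% and *Neurod4* in 5.29%, so that the lack of *Neurod4* in 7 cells does not set them apart.

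*Slc18a2* (chromosome 19, 59260896 to 59296012), which encodes the vesicular monoamine transporter VMAT2, was the most widely detected, in 807 cells with 1526 UMIs. Its share was 26.6% in mouse 1 (22.0 to 31.5), 41.2% in mouse 2 (38.2 to 44.3) and 42.7% in mouse 3 (38.9 to 46.6), and at 3000 UMIs per cell 21.0%, 20.2% and 19.0%. The lower share of mouse 1 was thus not seen at equal depth, where the mean was 20.1% ± 1.02 (SD, n = 3 mice). The smooth muscle-like cells had it in 10.9% (4.51 to 21.2) at 0.315 UMIs per 10000 (0.144 to 0.598), and 7 of the 12 other clusters had levels whose intervals lay above that one. Cluster 11 was highest, with 20 of 22 cells and 4.54 UMIs per 10000 (3.63 to 5.60), then cluster 12 with 2.70 (1.95 to 3.65) and cluster 4, with *Lrp1b*, *Htr2b* and *Tac1* among its leading genes, with 1.91 (1.63 to 2.22). The intervals of clusters 11 and 12 and of clusters 12 and 4 overlap, and that of cluster 4 lies above the next, cluster 7 at 1.23 (0.994 to 1.52). Clusters 6, 9, 8, 3 and 5 lay at 0.472, 0.334, 0.312, 0.293 and 0.156, levels whose intervals overlap that of the smooth muscle-like cells. This overlap cannot show whether *Slc18a2* in them is background. Of the 64 smooth muscle-like cells 58 came from mouse 1, while clusters 3, 5, 6 and 8 held 0 cells of that mouse.

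The other transporters were close to absent. *Slc18a1* (chromosome 8, 69037711 to 69089235), which encodes VMAT1 of endocrine cells, had 1 UMI in 1 cell of mouse 2. *Slc6a2* (chromosome 8, 92960079 to 93001667), the noradrenaline transporter, had 1 UMI each in 1 cell of mouse 2 and 1 of mouse 3, both of them cells with *Nos1*. *Slc6a4* (chromosome 11, 76998603 to 77032340), the serotonin transporter, was in 0 of 2060 cells, with the same limits as *Tph2*. At this depth *Slc6a2* and *Slc6a4* were therefore not detected beyond single UMIs.

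*Maoa* (chromosome X, 16619698 to 16687818), the oxidase that prefers serotonin and noradrenaline, was detected in 528 cells with 763 UMIs, in 23.7% of mouse 1 (19.4 to 28.5), 26.8% of mouse 2 (24.1 to 29.6) and 24.8% of mouse 3 (21.6 to 28.3). The level was 0.898 UMIs per 10000 in mouse 1, 0.376 in mouse 2 and 0.370 in mouse 3. Shares were alike while the level of mouse 1 was higher, and at 3000 UMIs per cell its share was 21.7%, against 8.44% and 9.82%. Much of this lay in 1 group of cells. Cluster 9 had *Maoa* in 57 of 75 cells (76.0%, 64.7 to 85.1) at 3.16 UMIs per 10000 (2.70 to 3.67), against 0.633 (0.327 to 1.11) in the next, cluster 11. The 3 mice were close within cluster 9, at 3.24, 3.6 and 2.71. It took 13.3% of the cells of mouse 1 and 1.24% and 2.29% of mice 2 and 3, and without it the level of mouse 1 was 0.472, against 0.334 and 0.305. Of the 10 cells with 5 or more UMIs of *Maoa*, 9 were in cluster 9. In the other 11 clusters the interval of the level overlapped that of the smooth muscle-like cells, 0.280 (0.121 to 0.552).

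*Maob* (chromosome X, 16709282 to 16817366), which prefers phenylethylamine and is known from serotonergic neurons and glia, was detected in 101 cells with 114 UMIs, in 6.78%, 4.67% and 4.27% of mice 1, 2 and 3, at 0.190, 0.0531 and 0.0468 UMIs per 10000. Its highest level was in the smooth muscle-like cells, in 10 of 64 (15.6%, 7.76 to 26.9) at 0.420 (0.217 to 0.734). The share in 11 of the other 12 clusters was at or below that of these cells, and 9 of the 12 had levels with intervals below theirs. Cluster 9 came closest, with 14 of 75 cells (18.7%, 10.6 to 29.3) at 0.297 (0.170 to 0.482). The smooth muscle-like cluster held 37.9% of the *Maob* UMIs of mouse 1, whose level without it was 0.140.

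**Figure D2:**
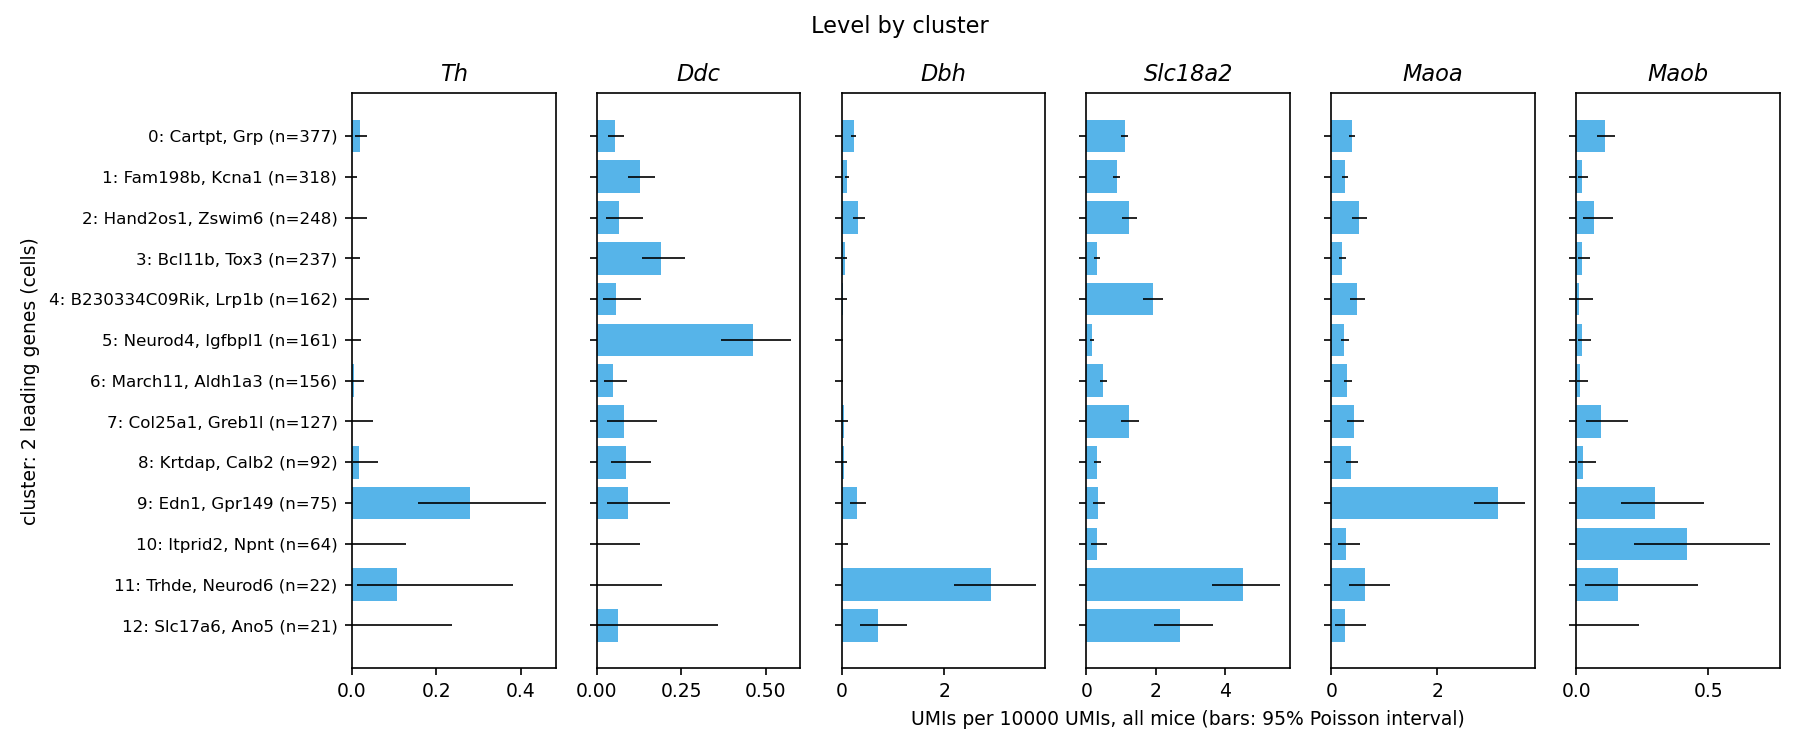
Level of *Th*, *Ddc*, *Dbh*, *Slc18a2*, *Maoa* and *Maob* (horizontal axes, UMIs per 10000 UMIs, a separate scale for each gene) in the 13 clusters, over all mice, with 95% Poisson intervals. *Ddc* peaks in cluster 5, *Dbh* and *Slc18a2* in cluster 11 and *Th* and *Maoa* in cluster 9, while *Maob* is highest in the smooth muscle-like cluster 10.

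Which of these genes shared a cell was counted for the 15 pairs of the 6 genes found in 17 or more cells. The number of cells with both was set beside the number expected from the mouse and the depth of each cell. The expected number takes no account of the cluster, although *Th* and *Maoa* peaked in cluster 9 and *Dbh* and *Slc18a2* in cluster 11. The part of shared clusters in the ratios was not tested. The 15 intervals treat cells as independent and were not adjusted for their number. For 4 pairs the interval of the ratio lay above 1, for 0 below 1, and for 11 it included 1. *Dbh* and *Slc18a2*, the enzyme and the transporter of noradrenergic vesicles, shared 92 cells where 69.6 were expected (ratio 1.32, 1.07 to 1.62), with 9, 49 and 34 in mice 1, 2 and 3 against 7.14, 35.8 and 26.7. The observed number was above the expected one in each mouse, but the interval was taken over all mice together and none was taken per mouse. These 92 were 60.5% of the cells with *Dbh* and 11.4% of those with *Slc18a2*. Of them 58 held *Nos1*, which was detected in 1065 of all 2060 cells.

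*Th* shared 7 of its 17 cells with *Dbh*, against 1.56 expected (ratio 4.50, 1.81 to 9.27), 11 with *Maoa* against 5.27 (2.09, 1.04 to 3.74) and 5 with *Maob* against 0.932 (5.36, 1.74 to 12.52). With *Slc18a2* it shared 10 against 8.33 and with *Ddc* 3 against 1.78, ratios whose intervals include 1. All of these cells came from mice 2 and 3. *Ddc* shared 60 cells with *Slc18a2* against 74.0 (ratio 0.811, 0.618 to 1.04) and 11 with *Dbh* against 13.9 (0.792, 0.395 to 1.42). For every pair with *Ddc*, the enzyme between *Th* and *Dbh* in the chain, the interval of the ratio included 1. At 2 UMIs or more of both genes the ratio of *Th* and *Dbh* was 26.4, that of *Th* and *Ddc* 9.0 and that of *Dbh* and *Slc18a2* 2.24, that of *Ddc* and *Slc18a2* fell to 0.272, and that of *Th* and *Maob* fell to 0. Only 3 cells had 2 or more UMIs of *Th*.

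**Figure D3:**
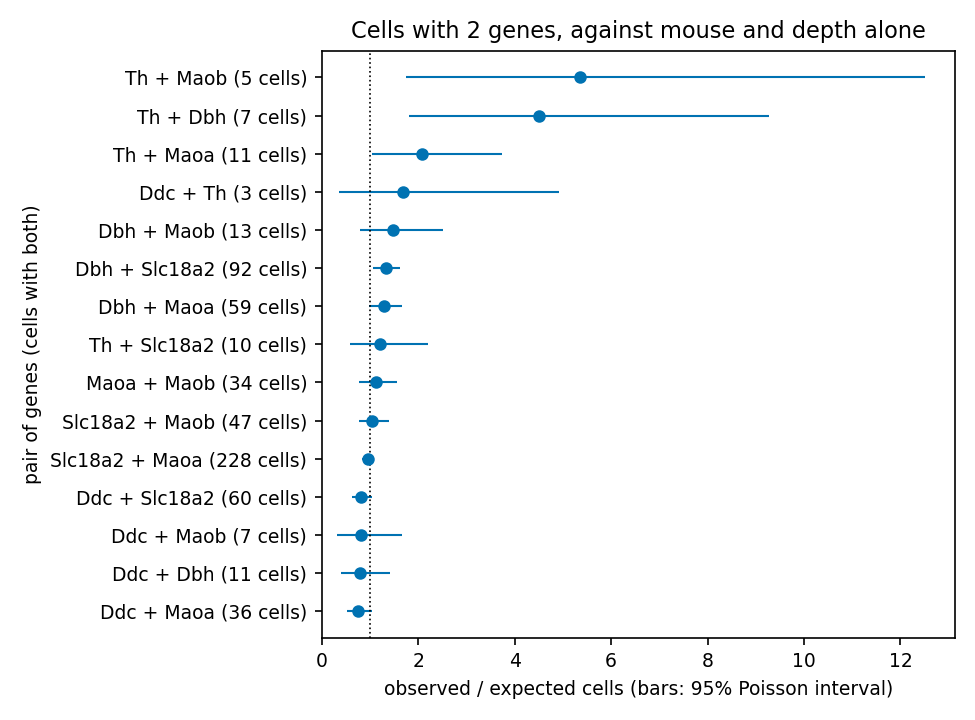
Ratio of the observed number of cells with both genes of a pair to the number expected from mouse and depth (horizontal axis) for 15 pairs, with 95% Poisson intervals. The dotted line marks a ratio of 1, and the pairs with intervals above it are *Th* with *Maob*, *Dbh* and *Maoa*, and *Dbh* with *Slc18a2*.

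Levels were compared between 3 classes of cells. *Neurod4* encodes a proneural transcription factor, *Nos1* the nitric oxide synthase of inhibitory motor neurons, and *Chat* choline acetyltransferase. *Neurod4*-positive cells were all with 1 UMI or more of *Neurod4*, 1 in mouse 1, 60 in mouse 2 and 48 in mouse 3. *Nos1*-only cells, without *Chat* and *Neurod4*, numbered 130, 506 and 282, and *Chat*-only cells, without *Nos1* and *Neurod4*, 16, 138 and 101. Of the 109 *Neurod4*-positive cells 51 also held *Nos1* and 29 *Chat*, and 56 lay in cluster 5. UMIs were summed per mouse and class, the 1 cell of mouse 1 was left out, and limma was fitted to the 8 sums with the mouse as a block on log2(UMIs per 10000 + 0.1), a scale that understates the change of low genes. The level of *Neurod4*-positive cells thus rests on mice 2 and 3. Of the 10 genes, 5 had the 20 UMIs needed for the fit, and *Th*, with 19, was the nearest below.

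In *Neurod4*-positive cells *Ddc* was higher and *Slc18a2* lower than in *Chat*-only cells, and *Slc18a2* was lower than in *Nos1*-only cells. The level of *Ddc* was 0.564 UMIs per 10000 in mouse 2 (0.399 to 0.773) and 0.362 in mouse 3 (0.227 to 0.549), in 25% and 20.8% of the *Neurod4*-positive cells. In *Chat*-only cells it was 0, 0.129 and 0.0629 in mice 1, 2 and 3, and in *Nos1*-only cells 0.0495, 0.0592 and 0.0826. Both *Neurod4*-positive values lay above all 6 values of the other classes. Against *Chat*-only cells the log2 difference was 1.65 ± 0.327 (SE; limma, adjusted p = 0.0378), and the ratio was 4.36 in mouse 2 (2.43 to 8.12) and 5.76 in mouse 3 (2.27 to 17.4). Against *Nos1*-only cells it was 1.57 ± 0.327 (SE), which missed the threshold of 0.05 (limma, adjusted p = 0.0503), with ratios of 9.53 (5.77 to 15.8) and 4.39 (2.32 to 8.31). *Neurod4*-positive cells were 5.29% of all cells with 7.03% of all UMIs, and held 26.2% of the UMIs of *Ddc*.

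The call of *Ddc* against *Chat*-only cells was kept in 9 of 15 alternatives, with adjusted p from 0.000269 to 0.776 in limma, and was lost without mouse 2 (adjusted p = 0.776) or mouse 3 (adjusted p = 0.421), each of which leaves 1 *Neurod4*-positive sum. Against *Nos1*-only cells *Ddc* passed in 5 of 15 in limma, among them the fit without mouse 1 (log2 difference 1.70, adjusted p = 0.000106), and the direction was the same in all 15 for both.

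*Slc18a2* had 0.326 UMIs per 10000 in the *Neurod4*-positive cells of mouse 2 (0.205 to 0.494) and 0.280 in those of mouse 3 (0.163 to 0.448). In *Nos1*-only cells it had 1.04, 0.927 and 0.856, and in *Chat*-only cells 0.907, 0.689 and 0.891. The *Neurod4*-positive values lay below all 6 others. They lay within the interval of the smooth muscle-like cells (0.144 to 0.598), which came mostly from mouse 1, so that this cannot show whether they are background. The log2 difference was -1.30 ± 0.195 (SE; limma, adjusted p = 0.0189) against *Nos1*-only cells and -1.13 ± 0.195 (SE; limma, adjusted p = 0.0230) against *Chat*-only cells. As ratios the *Neurod4*-positive cells were 2.84 and 3.06 times lower than *Nos1*-only cells in mice 2 and 3, and 2.11 and 3.18 times lower than *Chat*-only cells. The calls were kept in 11 and 10 of 15 alternatives and the direction in all of them, and both were lost without mouse 2 (limma, adjusted p = 0.259 and 0.284) or mouse 3 (limma, adjusted p = 0.243 and 0.714).

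Of the 5 genes fitted, 1 was thus called against *Nos1*-only cells, where 2.51% of the 12943 genes tested were called (0.579% higher and 1.93% lower in *Neurod4*-positive cells). Against *Chat*-only cells 2 of the 5 were called, 1 higher and 1 lower, where 3.09% of genes were (0.564% higher and 2.53% lower). These were 73 genes higher and 327 lower, or 105 and 263 when levels were scaled to the UMIs of the listed genes. Between *Nos1*-only and *Chat*-only cells limma called 0 of the 5, where 1.71% of genes were called (0.912% higher and 0.796% lower in *Nos1*-only cells), and limma-voom also called 0. Only *Maoa* had an unadjusted p under 0.05 (log2 difference -0.65 ± 0.234, SE; limma, adjusted p = 0.238). Over all genes the median log2 difference was -0.09, -0.05 and 0.03 in the 3 comparisons.

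*Dbh* was nearly missing from *Neurod4*-positive cells, with 1 UMI in each of mice 2 and 3 (0.0148 and 0.0165 UMIs per 10000). In *Nos1*-only cells it had 0.181, 0.134 and 0.135, and in *Chat*-only cells 0.756, 0.0574 and 0.0734, the first of these from 5 UMIs in 1 cell of mouse 1. Of the 3 classes, *Nos1*-only cells were highest in mice 2 and 3. Cells with none of *Neurod4*, *Nos1* and *Chat*, which are outside the classes, had more, at 0.217, 0.213 and 0.325 in mice 1, 2 and 3. The fit gave log2 differences of -0.67 ± 0.484 (SE; limma, adjusted p = 0.575) against *Nos1*-only and -0.87 ± 0.484 (SE; limma, adjusted p = 0.449) against *Chat*-only cells. The ratio of *Neurod4*-positive to *Nos1*-only cells over mice 2 and 3 was 0.116, with a counting interval of 0.0139 to 0.431. Without mouse 1 the first difference was -1.02 and passed the threshold (limma, adjusted p = 0.00143).

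*Maoa* had 0.193 and 0.247 UMIs per 10000 in the *Neurod4*-positive cells of mice 2 and 3, 0.627, 0.345 and 0.345 in *Nos1*-only cells and 1.66, 0.417 and 0.514 in *Chat*-only cells of mice 1, 2 and 3. Of the classes *Chat*-only cells were highest in every mouse, an order that rests in part on few cells. They had 11 UMIs in 16 cells in mouse 1. In mouse 3 single cells of cluster 9 held 13 and 5 of their 49 UMIs. Cluster 9, where *Maoa* peaked, held 12 of the 255 *Chat*-only and 13 of the 918 *Nos1*-only cells. No difference passed the threshold (limma, adjusted p = 0.642 and 0.119 for *Neurod4*-positive against *Nos1*-only and *Chat*-only cells). Without mouse 1 the latter passed (log2 difference -0.82; limma, adjusted p = 0.00583). *Maob* was in 0 of the 108 *Neurod4*-positive cells of mice 2 and 3, which allows up to 2.78%, and in 43 of their 788 *Nos1*-only and 4 of their 239 *Chat*-only cells. At the floor of 3 UMIs over both mice, this level was at least 2.54-fold lower than in *Nos1*-only cells, while the fitted difference of -0.38 ± 0.375 (SE) did not pass (limma, adjusted p = 0.702) except without mouse 1 (limma, adjusted p = 0.0125) and with 2 UMIs needed for a class (limma, adjusted p = 0.0478). *Th* was in 0 of the same 108 cells, 8 of the 788 (1.02%) and 3 of the 239 (1.26%). Its 0 also allows up to 2.78%, above both of these shares, so it does not show a difference.

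**Figure D4:**
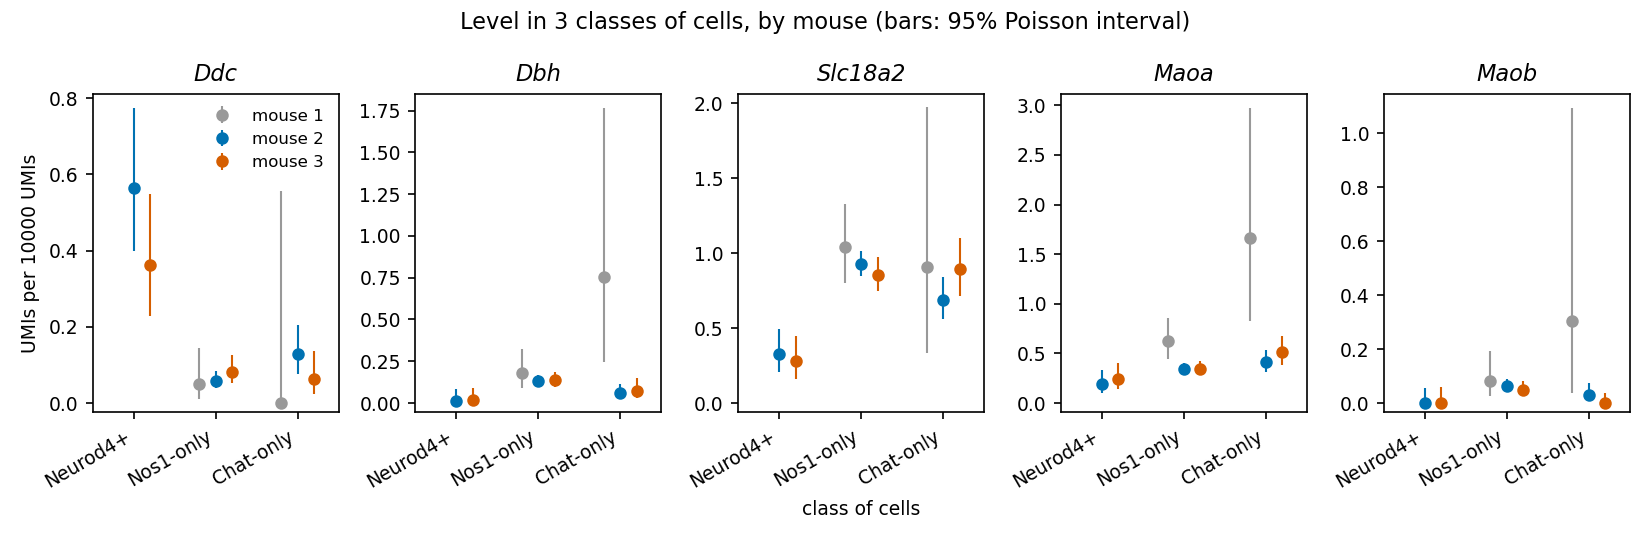
Level of the 5 fitted genes (vertical axes, UMIs per 10000 UMIs, a separate scale for each gene) in *Neurod4*-positive, *Nos1*-only and *Chat*-only cells of each mouse, with 95% Poisson intervals. *Ddc* is highest and *Slc18a2* lowest in the *Neurod4*-positive cells of mice 2 and 3, and the wide bars of mouse 1 in *Chat*-only cells come from 16 cells.

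At 3000 UMIs per cell, with the classes set again, *Ddc* was in 24.1% and 8.33% of the *Neurod4*-positive cells of mice 2 and 3, against 2.0%, 2.06% and 1.32% of *Nos1*-only cells of mice 1, 2 and 3 and 4.48% and 2.78% of *Chat*-only cells of mice 2 and 3. *Slc18a2* was in 3.45% and 0% of the *Neurod4*-positive cells, 20%, 24.4% and 20.6% of *Nos1*-only and 20.9% and 27.8% of *Chat*-only cells. The *Neurod4*-positive class, here 29 and 24 cells, thus stayed highest for *Ddc* and lowest for *Slc18a2*, although the fit made no call for either gene (limma, adjusted p = 0.119 and 0.0719 for *Slc18a2* against *Nos1*-only and *Chat*-only cells, and 0.147 for *Ddc* against *Chat*-only cells).

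The *Neurod4*-positive class was also divided by *Nos1* and *Chat*. Over mice 2 and 3, *Ddc* had 0.592 UMIs per 10000 (0.405 to 0.836) in the 44 cells that held *Nos1* without *Chat*, 0.627 (0.358 to 1.02) in the 22 with *Chat* without *Nos1* and 0.293 (0.151 to 0.512) in the 35 with neither, intervals that overlap. *Slc18a2* had 0.389, 0.392 and 0.171 in the same order. Both were lowest in the cells with neither gene, a difference that was not tested. Inside cluster 5 *Ddc* had 0.557 (0.392 to 0.768) in *Neurod4*-positive cells and 0.408 (0.299 to 0.545) in the 105 cells without *Neurod4*, and in the 52 *Neurod4*-positive cells of other clusters 0.373 (0.236 to 0.559). Cells of cluster 5 in which *Neurod4* was not detected thus had *Ddc* at a level not distinguishable from that of its *Neurod4*-positive cells. *Slc18a2* had 0.166 and 0.151 in these parts of cluster 5 and 0.454 (0.302 to 0.656) in the *Neurod4*-positive cells outside it. Over mice 2 and 3 together the last lay above both. In mouse 2 *Neurod4*-positive cells had *Slc18a2* at 0.0936 inside cluster 5 and 0.537 outside it, with intervals that do not overlap. In mouse 3 they had 0.233 and 0.342, with intervals that overlap. For *Ddc* the order of these cells turned, with 0.842 inside and 0.311 outside in mouse 2, and 0.291 and 0.456 in mouse 3.

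Markers of other cell types also differed between the classes. The 10 glial markers summed to 9.12 and 4.93 UMIs per 10000 in *Neurod4*-positive cells of mice 2 and 3, 12.2 to 14.4 in *Nos1*-only cells and 6.03 to 11.5 in *Chat*-only cells. The 10 smooth muscle markers summed to 11.6 and 6.69, 14.1 to 34.7 and 7.43 to 20.7. The 7 enteroendocrine markers summed to 2.89 and 3.29, 1.30 to 1.97 and 1.81 to 1.91, mostly *Chga*, and the epithelial genes *Epcam* and *Vil1* were at 0 in every class. The part of the enteroendocrine markers in the level of *Ddc* was not tested. The part of the glial markers in the level of *Slc18a2* was not tested. Without the smooth muscle-like cluster both calls of *Slc18a2* were kept (limma, adjusted p = 0.0205 and 0.0250).

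The genes around the pathway were read from fixed lists. Of 8 tested genes for tetrahydrobiopterin, the cofactor of the hydroxylases, and for a hydroxylase chaperone, 2 fell and 0 rose in *Neurod4*-positive against *Nos1*-only cells. These were *Gch1*, the first enzyme of cofactor synthesis (log2 difference -1.27 ± 0.241, SE; limma, adjusted p = 0.0373), and *Pcbd1*, which recycles it (-2.26 ± 0.307; adjusted p = 0.0143). Against *Chat*-only cells 1 of 8 fell, *Gch1* (-1.90 ± 0.241; limma, adjusted p = 0.00747). The medians over the list were -0.48 and -0.23, and *Qdpr* rose in *Nos1*-only against *Chat*-only cells (1.06; limma, adjusted p = 0.0478). *Gch1* was thus, like *Slc18a2*, lower than in both other classes.

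Of 6 tested transcription factors of noradrenergic and serotonergic neurons, 2 rose and 0 fell in *Neurod4*-positive against *Nos1*-only cells, and 2 rose and 0 fell against *Chat*-only cells, with list medians of 0.55 and 0.72. *Phox2a*, a homeodomain factor that drives *Dbh* and *Th* in sympathetic neurons, rose by 1.90 ± 0.234 on the log2 scale against *Nos1*-only cells (SE; limma, adjusted p = 0.00985), and differed by 1.05 against *Chat*-only cells without passing (limma, adjusted p = 0.0581). *Sox11* rose in both (1.64 and 1.24; limma, adjusted p = 0.00613 and 0.0103), and *Insm1* against *Chat*-only cells (1.19; limma, adjusted p = 0.0379). *Sox11* also belongs to the list of young neuron genes below and is counted in both lists. A relation of *Phox2a* to the levels of *Dbh* or *Th* in these cells was not tested. Between *Nos1*-only and *Chat*-only cells 0 of the 6 were called.

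Of 11 dense core granule genes, 4 fell and 1 rose in *Neurod4*-positive against *Nos1*-only cells and 6 fell and 1 rose against *Chat*-only cells, with list medians of -0.69 and -1.33. *Scg2* (secretogranin II), *Pcsk1* and *Pcsk1n* fell in both, by 1.45, 1.79 and 1.98 and by 1.86, 2.86 and 1.48 on the log2 scale, while *Chga*, named after its values were seen, rose by 0.76 and 0.71. *Cadps2*, a priming factor, fell by 1.72 against *Nos1*-only cells and was 2.47 higher in *Nos1*-only than in *Chat*-only cells (limma, adjusted p = 0.00871). Of 10 young neuron genes, 3 rose against each class and 1, *Dcx*, fell against *Chat*-only cells (-1.41; limma, adjusted p = 0.0272). *Igfbpl1* rose most, by 2.48 and 2.12.

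Among 9 further enzymes of synthesis and breakdown only *Aldh1a3* was called, higher in *Neurod4*-positive and in *Nos1*-only than in *Chat*-only cells (1.66 and 2.14; limma, adjusted p = 0.0221 and 0.0091). Among 6 further transporters only *Slc18a3*, the vesicular acetylcholine transporter, whose gene lies within the locus of *Chat*, was called, lower in the same 2 comparisons (-1.64 and -1.59; limma, adjusted p = 0.00744 and 0.0091). Of 4 tested adrenergic and dopamine receptors 0 were called in any of the 3 comparisons.

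The genes whose levels were most like those of each member were ranked by Pearson's r of log2(UMIs per 10000 + 0.1) over 19 columns of cluster and mouse with 20 or more cells, among 12070 genes, as a description. The columns share libraries and depth, and the limit of 20 cells leaves out clusters 11 and 12, where *Dbh* and *Slc18a2* were highest, and cluster 9 of mice 2 and 3, so that the peak of *Maoa* enters from mouse 1 alone. *Ddc* was most like *Prrxl1*, a homeodomain factor (r = 0.860), *Mfng* (0.827) and *Tac2* (0.815). *Dbh* was most like *Adcyap1*, which encodes the neuropeptide PACAP (0.822), *Ifi203* (0.80) and *Gpr37* (0.791), and *Slc18a2* like the potassium channel gene *Kcnd2* (0.912), *Psap* (0.908) and *Lrfn5* (0.901). *Maoa* was most like *Klhdc8a* (0.916), *Mfsd12* (0.913) and *Syt9* (0.913), and *Maob* like *Cavin2* (0.946), *Rspo3* (0.925) and *Chst15* (0.919). None of the 3 most alike genes of any member was another of the 10.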

How the data were processed

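The authors counted UMIs per gene with Cell Ranger on mm10 (tool and build per the labels, version and annotation not given in the sources used here), kept cells by genes and mitochondrial share, took out genes they regarded as confounding after merging the mice, and deposited neurons as natural log values, ln(1 + UMIs per 10000 UMIs of the cell). Whole UMIs and cell totals were recovered from the logs, 100% whole within 1e-06, over 0 columns outside the samples. Totals include unlisted genes, with 1.90% to 34.0% of each cell's UMIs. Cells ran from 2140 to 24945 UMIs and mice from 1526256 to 10358118, and this depth sets the intervals.

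The 10 genes, the lists and the tests were chosen with earlier results of these data known. UMIs were summed per mouse and class with 10 or more cells (8 sums, where 9 were planned) and tested in limma 3.58.1 (R 4.3.3) with a trend on log2(UMIs per 10000 + 0.1) over genes with 20 or more UMIs, with Benjamini-Hochberg adjustment. The mouse was the block because the classes of a mouse come from the same animal. The p-values rest on the spread of the 8 sums left after class and mouse are fitted, with variances shared across genes. *Neurod4*-positive sums came from mice 2 and 3 only. *Neurod4*, *Nos1* and *Chat*, which set the classes, are no results. Expected numbers of shared cells came from mouse and depth. Clustering used Seurat 5.3.0 with 20 components and resolution 0.5, and clusters were compared without tests. Scrublet in scanpy 1.11.5 marked 10 cells (0.485%) as doublets, a share too low to rely on; they were kept and left out in an alternative. The limma fit was tried on simulated sums, with the changed genes drawn from genes at higher levels than *Ddc*, *Dbh* and *Maob*. Genes named are the 10, of each list the 4 with the largest called differences, and the 3 most alike genes of each member found in 50 or more cells. Some genes of the lists are not reported here. Alternatives changed the pseudocount, filter, method, scaling, class rule, depth, cells, block and mice.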

Additional observations from a re-analysis of the deposited data

How the results depend on the processing

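Counts of called genes in *Neurod4*-positive against *Nos1*-only cells, *Neurod4*-positive against *Chat*-only cells and *Nos1*-only against *Chat*-only cells, in this order, were 325, 400 and 221 in limma. They were 27, 145 and 12 with no filter beyond 1 UMI, 811, 812 and 470 with limma-voom, 810, 462 and 101 when 2 UMIs set the classes, and 943, 1011 and 138 with 20 or more cells per class and mouse. At 3000 UMIs per cell they were 0, 14 and 0, with 2069, 2523 and 1029 genes at an unadjusted p under 0.05 in limma. With 1 mouse left out they ran from 77 to 2220, 109 to 2439 and 131 to 1237, lowest without mouse 2 and highest without mouse 1. Without mouse 2 or 3 the lone *Neurod4*-positive sum is assumed to vary like the others. The median log2 difference of all genes in the third comparison, 0.03, was -0.14 with limma-voom, and that of the first, -0.09, was -0.22 at 3000 UMIs. The cause was not tested.

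The replicate block pairs classes of the same mouse. With no replicate block the counts were 64, 206 and 23, and no call of the 10 genes changed.

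In *Nos1*-only against *Chat*-only cells, where no member was called, signs turned in 16 cases. The log2 difference of *Ddc*, 0.07, was -0.62 with voom, -0.12 with 2 UMIs, -0.49 at 3000 UMIs, -0.0086 when *Neurod4* was ignored, and -0.18 with 20 or more cells or without mouse 1 (leaving out 1 mouse gave -0.18 to 0.37). That of *Dbh*, -0.20, was 0.48, 0.70 and 0.35 in the first 3 of these and 0.50 in the last 2 (1 mouse left out, -0.58 to 0.50). That of *Maob*, -0.07, was 0.91 with voom, 0.67 with 2 UMIs and 0.47 in the last 2 (1 mouse left out, -0.39 to 0.47). That of *Slc18a2*, 0.17, was -0.14 at 3000 UMIs. Depth limits the shares: with 2 UMIs needed, *Slc18a2* was in 15.6% of cells and *Ddc* in 1.55%.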
